A study of Homo sapiens with 30 samples.

Results

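The genes described here carry a cell from G1 into S phase and copy its DNA: 34 of the 19775 genes that the arrays measured. They are the origin binding and helicase loading factors ORC1, ORC6, CDC6, CDT1 and GMNN, the helicase subunits MCM2 to MCM7, the helicase activators MCM10, CDC45, GINS1, GINS2 and GINS3, the fork proteins POLA1, PRIM1, POLE2, PCNA, RFC2, RFC3, RFC4, RFC5 and FEN1, the deoxynucleotide enzymes RRM1, RRM2, TYMS and TK1, and the G1-S regulators CCNE1, CCNE2, E2F1, E2F2 and UHRF1. Each gene was read on the brightest of its probe sets, the one with the highest mean over all arrays. That choice uses a level and no difference between lines. All 34 genes passed the filter on low values, and 21 of them had more than 1 probe set.

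Before S phase, the origin recognition complex, CDC6 and CDT1 load the ring of MCM2 to MCM7 onto DNA, and geminin (GMNN) binds CDT1 to stop a second loading. CDC45 and the GINS proteins, recruited with the help of MCM10, turn the loaded ring into a running helicase, primase (PRIM1 with its partner PRIM2) starts each strand for polymerase alpha, and the RFC complex loads the PCNA clamp for the polymerases that extend it. E2F1 and E2F2 drive many of these genes once cyclin E (CCNE1, CCNE2) and its kinase have helped to inactivate the retinoblastoma protein.

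The study measured them in KMS11, an established human myeloma line in which a chromosomal translocation raises NSD2 (MMSET), a methyltransferase of histone H3. On Affymetrix U133 plus 2.0 arrays, 10 lines were read as 3 separate cultures each. PAR is the untouched parental line, TKO the line labelled an NSD2 knockout, and the others are called reconstituted by the study's title: WT carries unmutated NSD2, CDM its catalytic dead mutant, H762Y the protein with that substitution, and MMSET1 the MMSET I isoform, a short form that ends before the catalytic SET domain. MMSET I was also combined with the active long protein (WT+MMSET1) and with the dead one (CDM+MMSET1). The 526-1240 and 526-1365 lines carry fragments of NSD2 named by first and last residue. Each transgene or pair of transgenes was read in 1 line, TKO is the shared control of 7 comparisons, and no line with an empty vector was analysed here, so a transgene and the history of its line cannot be told apart. The labels give neither the promoter of the transgenes nor whether a line is 1 clone.

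All values are log2 values from RMA (robust multiarray averaging), where a difference of 1 is a 2-fold change. Array medians lay between 4.986 and 5.039. Of 9 plasma cell markers, 8 exceeded the median of all values (5.013) in every line, while CD38 ran from 4.92 in TKO to 6.43 in PAR. The 4 monocyte markers lay below that median in every line, as did MS4A1, CD2, CD3E, LUM, COL1A2, CDH1 and AHSP. Other markers of the same lists lay above it in every line: PAX5, CD22, CD3D, CD247, KRT8 and ALAS2. DCN and KRT18 lay on both sides of it. EPCAM, an epithelial marker, ran from 6.71 in TKO to 9.56 in PAR, HBB from 6.83 to 8.09 and COL1A1 from 6.71 to 6.92. NSD2 still gave signal in TKO: PAR and TKO read 10.61 and 10.18 on probe set 209054_s_at, and 8.37 and 7.39 on 222778_s_at. On 15 arrays the most similar array belonged to another line. Across genes, replicates 2 and 3 of H762Y correlated at 0.998, while replicate 1 correlated with them at 0.958 and 0.961 and was nearest to replicate 1 of WT+MMSET1 (0.981). Results on H762Y are therefore given with and without it.

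The replication genes were bright. Their median level was 10.22 against 7.59 for all 13137 genes tested, and no line mean of a member fell under 7.87, the mean of CDC6 in 526-1240. The highest line mean was 12.84, that of RRM2 in WT. Levels of different genes are not set against each other here, since each probe set has its own brightness.

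They did not vary as a block. The median range between the highest and the lowest line mean was 0.57 for the members and 0.54 for all genes, and the line accounted for a median of 64.3% of a member's variance against 60.1% for all genes. Over the 561 pairs of members, the median correlation of the 10 line means was 0.18, and 39.8% of pairs correlated negatively. CCNE2 had the widest range, 1.63 between 526-1240 and WT, followed by PRIM1 with 1.33 between CDM+MMSET1 and WT. RFC4 (0.09) and FEN1 (0.13) had the narrowest on the probe sets read. With the lines as points, GINS3 (r = 0.92), MCM6 (0.85), TK1 (0.83) and PCNA (0.72) followed PRIM1 most closely, and MCM10 (-0.94), POLE2 (-0.88) and MCM4 (-0.82) ran opposite to it. These are descriptions over 10 lines that share a platform and a KMS11 origin, and they carry no test.

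**Figure D1:**
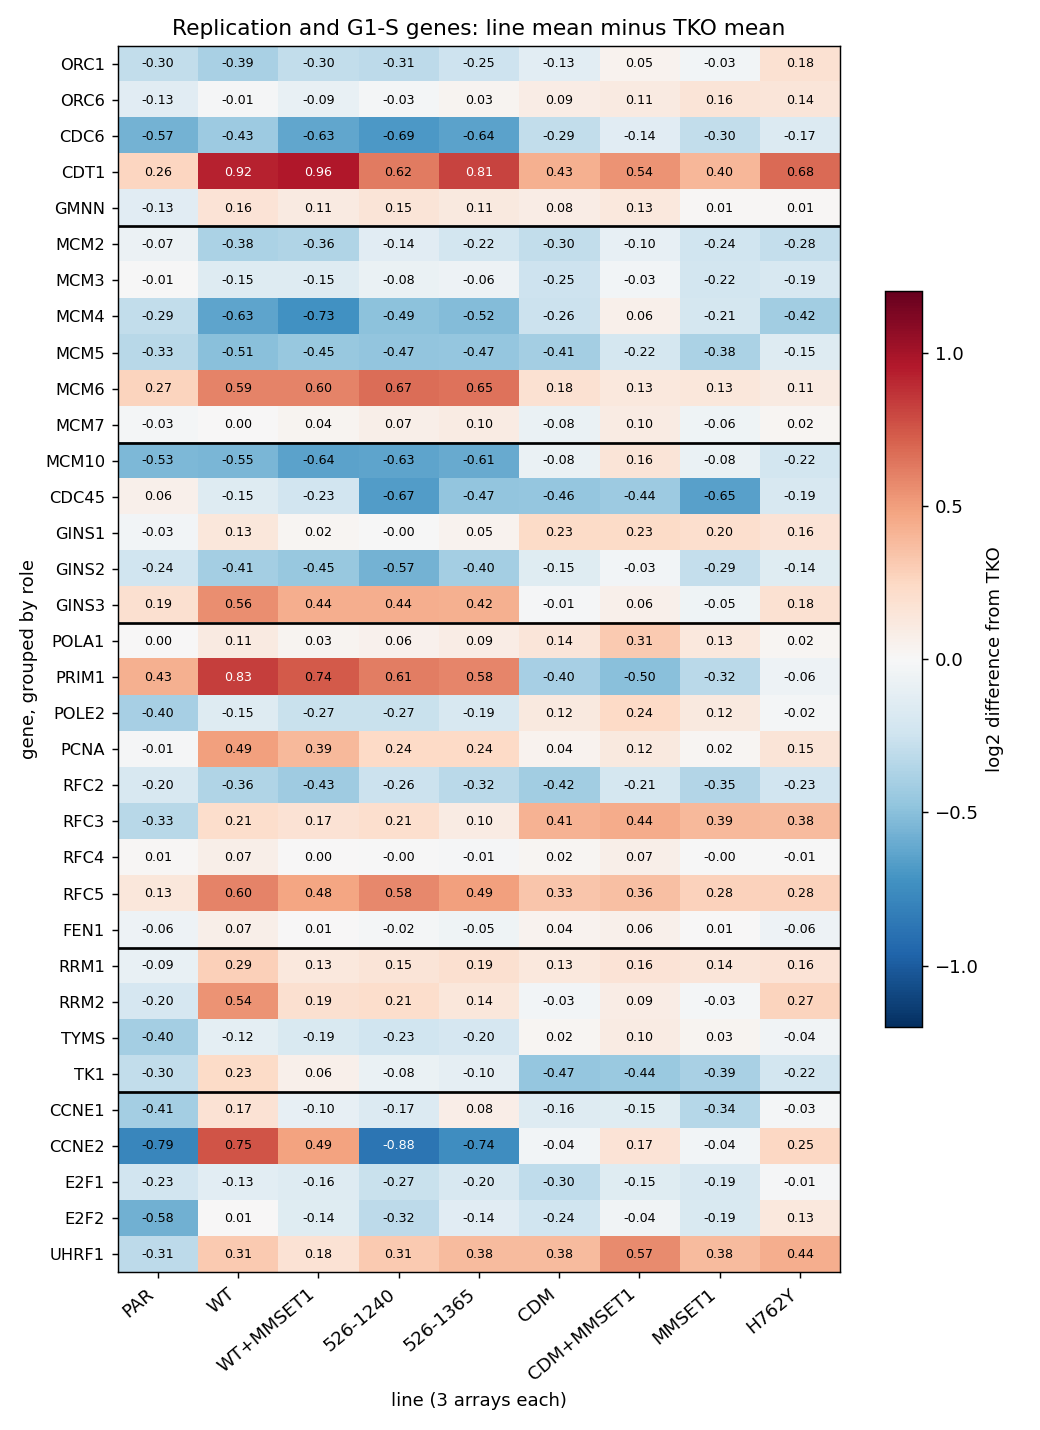
Mean of each line minus the mean of TKO (log2 scale, 3 arrays per line) for the 34 genes, which are grouped by role from helicase loading at the top to the G1-S regulators at the bottom. Within the MCM ring MCM6 is above TKO in every line while MCM5 is below it in every line, and CCNE2 runs from -0.88 in 526-1240 to 0.75 in WT; differences in the WT+MMSET1 and CDM+MMSET1 columns were not tested against TKO.

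A set of 5 promoters shows how unlike the upstream DNA of these genes is. RefSeq start sites (GRCh38.p14) matched 31 of the 34 genes; MCM4, MCM5 and CCNE2 were not matched. In the 250 bases before the start, the E2F letters TTTCGCGC, TTTGGCGC, TTTCCCGC or TTTGGCGG, on either strand and with overlapping matches counted, occurred in 14 of 31 members (45.2%) and in 794 of 27305 promoters of that length (2.91%). CCAAT on either strand occurred in 58.1% of members and 33% of all promoters, and TTTGAA, the core of the CHR element of late cell cycle genes, in 3.23% and 13.6%. Shown are the 200 bases before the start of 3 genes that were higher with active than with catalytically dead NSD2 (PRIM1, MCM6, CDT1) and of 2 that were lower when MMSET I was also present (MCM10, CDC6), each 5′ to 3′ on the gene's strand with the E2F letters in capitals. The stretches are chr12:56752324-56752523 (minus strand) for PRIM1, chr2:135876444-135876643 (minus) for MCM6, chr16:88803589-88803788 (plus) for CDT1, chr10:13161358-13161557 (plus) for MCM10 and chr17:40287679-40287878 (plus) for CDC6.
PRIM1: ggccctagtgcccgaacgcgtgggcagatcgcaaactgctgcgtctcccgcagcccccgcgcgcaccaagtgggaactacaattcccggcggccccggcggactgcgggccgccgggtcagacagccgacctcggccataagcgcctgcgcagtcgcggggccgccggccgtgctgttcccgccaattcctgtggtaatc
MCM6: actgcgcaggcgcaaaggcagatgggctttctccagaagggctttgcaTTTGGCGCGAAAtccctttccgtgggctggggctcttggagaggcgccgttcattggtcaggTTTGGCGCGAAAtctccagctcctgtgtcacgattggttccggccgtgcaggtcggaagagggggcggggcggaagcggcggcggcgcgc
CDT1: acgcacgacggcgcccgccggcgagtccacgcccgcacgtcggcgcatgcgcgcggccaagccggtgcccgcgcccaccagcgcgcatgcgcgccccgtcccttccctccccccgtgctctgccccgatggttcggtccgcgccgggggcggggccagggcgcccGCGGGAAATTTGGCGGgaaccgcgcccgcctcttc
MCM10: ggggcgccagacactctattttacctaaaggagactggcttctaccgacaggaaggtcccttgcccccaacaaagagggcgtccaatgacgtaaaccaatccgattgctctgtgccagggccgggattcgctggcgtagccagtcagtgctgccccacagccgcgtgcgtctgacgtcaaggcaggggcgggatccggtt
CDC6: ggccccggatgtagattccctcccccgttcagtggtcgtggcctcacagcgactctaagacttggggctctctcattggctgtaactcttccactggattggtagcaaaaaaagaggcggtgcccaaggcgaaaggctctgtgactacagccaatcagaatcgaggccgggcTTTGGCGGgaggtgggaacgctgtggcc
MCM6 held 4 matches, in 2 overlapping pairs, CDT1 held 2 side by side and CDC6 held 1. PRIM1 and MCM10, which moved in opposite directions, held none of these letters in the stretch. Matching letters are a description of the DNA and not a measured binding site.

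Active NSD2 was compared with its catalytically dead mutant. With all 30 arrays in the fit and on the probe sets read, the members called were all higher with the active enzyme. Of the 34 genes, 11 were higher in WT than in CDM and 0 were lower (limma, adjusted p under 0.05 by Benjamini-Hochberg over all genes tested), while 23.4% of all genes were called, 12.4% higher and 11% lower. The 11 came from every role: CDT1 in helicase loading, MCM6 in the ring, CDC45 and GINS3 in its activation, PRIM1, PCNA and RFC5 at the fork, RRM2 and TK1 in nucleotide supply, and the cyclins CCNE1 and CCNE2. The median difference of the members was 0.07 against -0.02 for all genes, and 23 members were not called.

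PRIM1, the catalytic subunit of primase, changed most. Its arrays read 11.77, 11.61 and 12.00 in WT and 10.62, 10.69 and 10.41 in CDM. Every WT array lay above every CDM array, and the difference was 1.22 (SE 0.234, adjusted p = 0.000741), or 2.34-fold. TK1, the salvage kinase for thymidine, read 10.82, 10.63 and 10.78 against 10.10, 10.10 and 9.95, a difference of 0.69 (SE 0.133, adjusted p = 0.000793). RRM2, the regulated subunit of ribonucleotide reductase, read 12.98, 12.77 and 12.77 against 12.25, 12.22 and 12.33. The lines did not overlap on TK1 or RRM2, and the RRM2 difference was 0.57 (adjusted p = 0.000904).

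GINS3, a subunit of the complex that holds CDC45 to the helicase, read 8.82, 8.95 and 9.09 in WT and 8.35, 8.36 and 8.44 in CDM (difference 0.57, adjusted p = 0.00274). MCM6 read 11.99, 12.10 and 12.06 in WT and 11.71, 11.54 and 11.65 in CDM (difference 0.41, adjusted p = 0.00573). Neither gene's arrays overlapped. CCNE2 was higher by 0.79 (adjusted p = 0.0014). Calls on these 6 genes (PRIM1, TK1, RRM2, GINS3, MCM6 and CCNE2) held when any 1 of the 6 arrays was left out.

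The other 5 calls did not. PCNA (0.45) lost its call without CDM replicate 2 or WT replicate 1, with differences between 0.39 and 0.54 over the arrays left out. CDT1 (0.50) lost it without CDM replicate 1 or 2 or WT replicate 2 or 3, between 0.37 and 0.64, and its WT and CDM arrays overlapped. For RFC5 (0.27) it ended without CDM replicate 1 or WT replicate 1 or 3 (0.21 to 0.34), for CDC45 (0.31) without CDM replicate 1 or 3 or WT replicate 2 or 3 (0.24 to 0.43), and for CCNE1 (0.33) without any CDM array or WT replicate 2 or 3 (0.26 to 0.42). The count of members called was 7 without CDM replicate 1 and also without WT replicate 3. CDT1, RFC5, CDC45 and CCNE1 also lost their calls when only the WT and CDM arrays were fitted. Over all genes the count also moved, from 3070 to 1546 without WT replicate 1, 1620 without CDM replicate 3, 1920 without WT replicate 3 and 1944 without CDM replicate 1.

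The same comparison was made on other arrays, in the lines that also carry MMSET I. There 5 members were higher in WT+MMSET1 than in CDM+MMSET1 and 6 were lower, with 32.1% of all genes called, 16.1% higher and 16% lower. The 5 higher genes were PRIM1, TK1, MCM6, CDT1 and GINS3. All 5 were among the 11 genes higher in WT than in CDM, which is 45.5% of the first list and 100% of the second. The comparisons share no arrays. The matching overlap over all genes was not counted, so this overlap is not read as a trait of the members. Over all members, 25 of 34 had the same sign in both, against 80.0% of all genes tested.

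PRIM1 read 11.67, 11.63 and 11.81 in WT+MMSET1 and 10.46, 10.40 and 10.54 in CDM+MMSET1. The lines did not overlap, and the difference was 1.24 (SE 0.234, adjusted p = 0.000473). MCM6 read 12.07, 11.99 and 12.09 against 11.60, 11.57 and 11.59, a difference of 0.47 (adjusted p = 0.00158). TK1 differed by 0.51 (adjusted p = 0.00649), CDT1 by 0.43 (0.0366) and GINS3 by 0.38 (0.0245). None of the 5 genes had overlapping arrays.

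The 6 lower genes were MCM10, MCM4, POLE2, CDC6, UHRF1 and POLA1, so the list moved in both directions here. MCM10, which helps to activate the helicase, read 9.38, 9.38 and 9.56 in WT+MMSET1 and 10.25, 10.27 and 10.20 in CDM+MMSET1, and was lower by a log2 difference of -0.80 (SE 0.217, adjusted p = 0.0078). MCM4, a subunit of the same ring as MCM6, read 9.05, 9.27 and 9.43 against 10.01, 10.03 and 10.09 and differed by -0.79 (SE 0.207, adjusted p = 0.00635). The arrays did not overlap, and MCM4 and MCM6 stood on opposite sides in the same cultures. POLE2, a subunit of the leading strand polymerase, differed by -0.50 (adjusted p = 0.0126). CDC6 differed by -0.49 (0.0479), UHRF1, a hemimethylated DNA binder, by -0.39 (0.0387) and POLA1, the catalytic subunit of polymerase alpha, by -0.28 (0.0342).

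In WT against CDM without MMSET I, the same 6 genes also read lower, by -0.46 for MCM10 (adjusted p = 0.12), -0.38 for MCM4 (0.19), -0.27 for POLE2 (0.187), -0.14 for CDC6 (0.631), -0.07 for UHRF1 (0.782) and -0.03 for POLA1 (0.861). None passed on the probe sets read with all 30 arrays in the fit. Another MCM4 probe set, 222037_at, was called lower with all arrays (-0.71, adjusted p = 0.0301 over probe sets). The remaining MCM4 probe sets also read lower there without passing. With the WT and CDM arrays alone, however, MCM10 (adjusted p = 0.0174) and MCM4 (0.0254) were called lower, and MCM10 also passed in a fit without H762Y replicate 1 (0.0342). Whether the effect of catalytic activity differs with MMSET I was tested directly as an interaction. It called 0 members and 0 genes in all (0%); 2 members, RRM2 (-0.47) and E2F2 (-0.34), and 492 genes had an unadjusted p under 0.05. For MCM4 the interaction was -0.42 with a 95% interval of -1.02 to 0.19, and for PRIM1 it was 0.02 with an interval of -0.67 to 0.70.

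With MMSET I, the calls on PRIM1, TK1, MCM6, MCM10, MCM4 and POLE2 held whichever array was left out. GINS3 lost its call without CDM+MMSET1 replicate 1 or WT+MMSET1 replicate 1 or 3 (0.31 to 0.42). CDT1 lost it without CDM+MMSET1 replicate 1 or 3 or any WT+MMSET1 array (0.39 to 0.48), CDC6 without any CDM+MMSET1 array or WT+MMSET1 replicate 1 or 2 (-0.59 to -0.42), UHRF1 without CDM+MMSET1 replicate 2 or 3 or any WT+MMSET1 array (-0.44 to -0.34), and POLA1 without any CDM+MMSET1 array or WT+MMSET1 replicate 1 (-0.33 to -0.20). The count fell to 6 without WT+MMSET1 replicate 1 and to 7 without CDM+MMSET1 replicate 1 or 3.

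**Figure D2:**
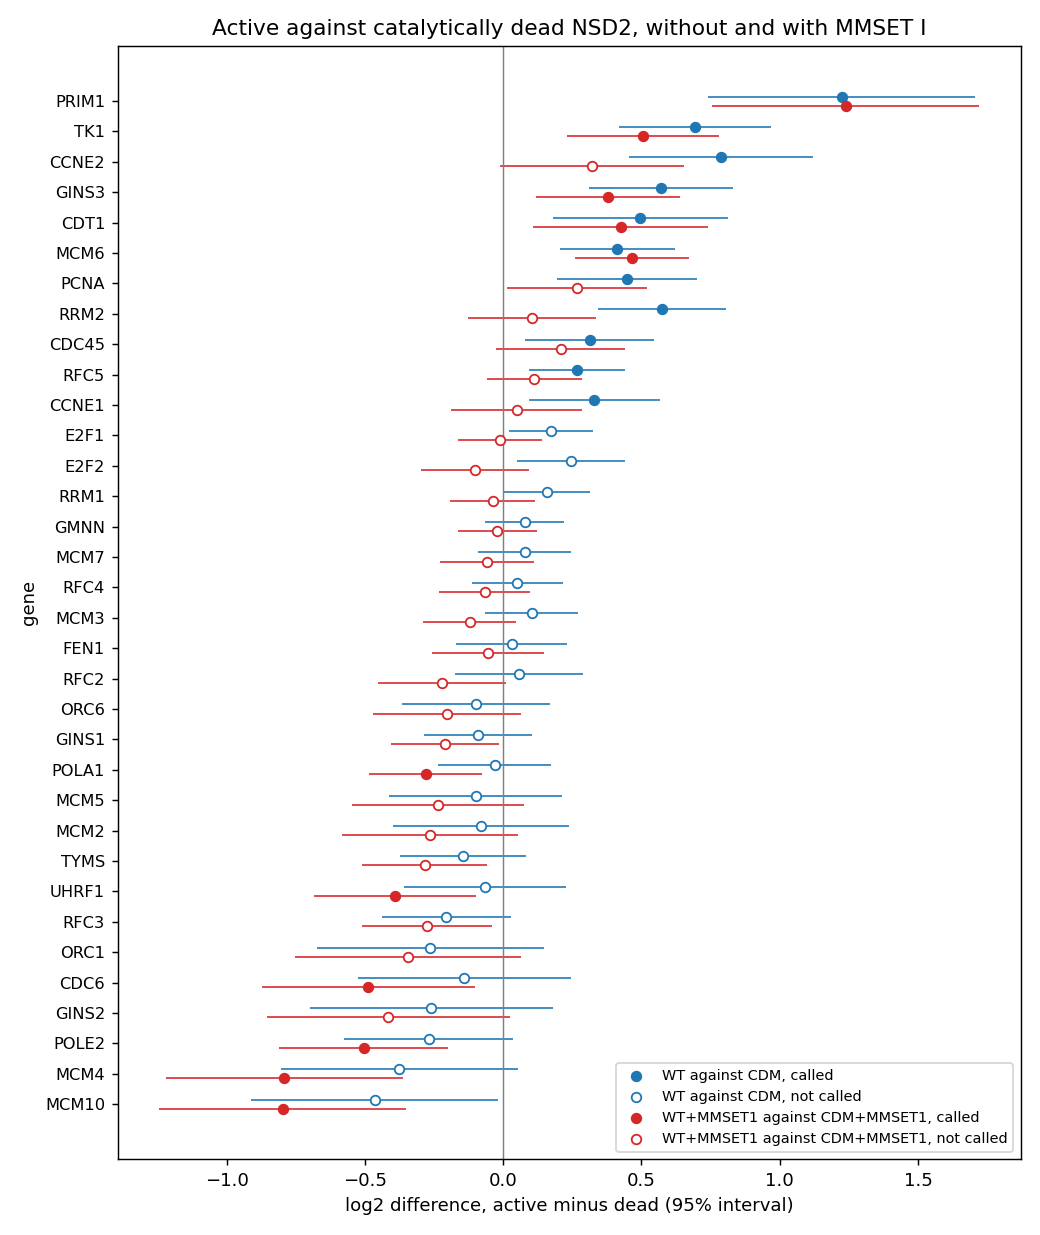
Log2 difference between active and catalytically dead NSD2 for the 34 genes, without MMSET I (WT minus CDM) and with it (WT+MMSET1 minus CDM+MMSET1); points are estimates from 3 arrays per line, filled where called, and bars are 95% intervals. PRIM1 stands far to the right in both comparisons (1.22 and 1.24), while MCM10 and MCM4 are lowest with MMSET I (-0.80 and -0.79).

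Adding MMSET I itself moved no member past the threshold. WT+MMSET1 against WT called 0 of 34 (0.0152% of all genes, which were 2 genes, both higher; 366 genes and 3 members at an unadjusted p under 0.05), and the members were RRM2 (-0.35), CCNE1 (-0.27) and RRM1 (-0.16). CDM+MMSET1 against CDM also called 0 of 34 (0.0457% of all genes, 0.00761% higher and 0.0381% lower, which were 6 genes; 634 genes and 3 members unadjusted), and the members were MCM3 (0.22), MCM7 (0.17) and E2F1 (0.15). Of the 34 genes, 6 read higher with MMSET I beside WT and 32 read higher with it beside CDM, with medians of -0.08 and 0.11. The medians over all genes were -1.27e-05 and -0.000716. Whether the list shifted as a whole was not tested.

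Against TKO, replication genes were called in both directions in WT and in both fragment lines. In WT, 9 members were higher and 4 lower, with 40.8% of all genes called, 21.5% higher and 19.3% lower. Some members not called in WT on the probe sets read were called lower on another. They were TYMS (-0.78 and -0.55), E2F2 (-0.78), TK1 (-0.73), FEN1 (-0.57), E2F1 (-0.54), RFC3 (-0.49), MCM7 (-0.46) and GINS2 (-0.36). No other probe set called such a member higher in WT. In 526-1240, 5 members were higher and 8 lower, with 38.6% of all genes called, 20.9% higher and 17.7% lower. In 526-1365, 6 were higher and 7 lower, with 37.7% of all genes called, 20.4% higher and 17.3% lower. The 3 comparisons share the TKO arrays, so their values are set side by side below without a test of their likeness.

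CDT1, the loading factor that geminin restrains, read 8.80, 8.62 and 8.81 in TKO. It read 9.38, 9.83 and 9.78 in WT, a difference of 0.92 (SE 0.153, adjusted p = 5.58e-05). The fragments differed from TKO by 0.62 and 0.81 (adjusted p = 0.00247 and 0.000226 for 526-1240 and 526-1365), and all 9 of these arrays lay above all TKO arrays. This holds only on the probe set read: the other one, 209832_s_at, differed by -0.03 in WT and by -0.24 and -0.13 in the fragments, and passed in none of the 3, while it did pass in WT against CDM (1.03) and WT+MMSET1 against CDM+MMSET1 (0.95).

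MCM6 read 11.47, 11.62 and 11.28 in TKO and between 11.99 and 12.21 on the 9 arrays of WT and the fragments. It differed by 0.59 in WT, 0.67 in 526-1240 and 0.65 in 526-1365 (adjusted p = 7.06e-05, 1.38e-05 and 2.18e-05), and its dim second probe set differed by 1.26, 1.23 and 1.19. GINS3 differed by 0.56, 0.44 and 0.42 (adjusted p = 0.00125, 0.00799 and 0.0101), and its second probe set by 0.63, 0.64 and 0.56. On these 2 genes both probe sets were higher in all 3 lines. PRIM1, with a single probe set, differed by 0.83 in WT (adjusted p = 0.00705), 0.61 in 526-1240 (0.0417) and 0.58 in 526-1365, where it did not pass (0.0525). RFC5, a clamp loader subunit, differed by 0.60, 0.58 and 0.49 on the probe set read, but by -0.28, -0.18 and -0.30 on 203210_s_at and by 0.10, 0.11 and 0.08, without passing, on 213734_at, so its direction depends on the probe set.

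Among the genes lower than in TKO, MCM5 fell in all 3 lines. Its TKO arrays read 10.27, 10.34 and 10.20 and its WT arrays 9.51, 9.99 and 9.80, with differences of -0.51 in WT and -0.47 in each fragment line (adjusted p = 0.0103, 0.0171 and 0.018); the second probe set differed by -0.78, -0.79 and -0.76. MCM10 differed by -0.55, -0.63 and -0.61 (adjusted p = 0.0474, 0.0247 and 0.03), but its 2 other probe sets differed by -0.25 and 0.03 in WT and passed in none of the 3. MCM4 fell in WT (-0.63, adjusted p = 0.018). MCM5 and MCM4 thus read lower in WT than in TKO while MCM6, another subunit of the ring, read higher.

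CDC6 fell in the fragment lines, with differences of -0.69 and -0.64 (adjusted p = 0.00516 and 0.00849), and differed by -0.43 in WT without passing (0.065). CDC45, which travels with the running helicase, also fell in both fragment lines (-0.67 and -0.47, adjusted p = 5.78e-05 and 0.00212), as did E2F1 (-0.27 and -0.20, adjusted p = 0.00606 and 0.0394). PCNA (0.49), RRM2 (0.54) and RRM1 (0.29) were higher in WT and RFC2 (-0.36) was lower. GINS2 (-0.57) and E2F2 (-0.32) were lower in 526-1240, while UHRF1 (0.38), RRM1 (0.19) and RFC2 (-0.32) were called in 526-1365. The other RRM1 probe set read lower without passing in WT (-0.10) and in 526-1365 (-0.12). The fragments themselves were not separated by the test: 526-1365 against 526-1240 called 0 members and 0 genes (0%; 180 genes and 1 member, CCNE1 at 0.25, unadjusted).

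Several of these calls rest on few arrays. In WT, MCM10 lost its call without any TKO array or WT replicate 1 or 3 (-0.63 to -0.45), MCM4 without TKO replicate 3 or WT replicate 1 (-0.70 to -0.57), and MCM5 (-0.62 to -0.38) and RFC2 (-0.45 to -0.23) without WT replicate 1. In 526-1240, PRIM1 lost it without any TKO array or 526-1240 replicate 1 or 3 (0.49 to 0.72), MCM10 without TKO replicate 2 or 3 or 526-1240 replicate 1 (-0.70 to -0.51), MCM5 without TKO replicate 2 or 526-1240 replicate 1 (-0.56 to -0.34), and GINS2 without any TKO array or 526-1240 replicate 1 (-0.74 to -0.31). CDC6 lost it without 526-1240 replicate 1 (-0.80 to -0.50), GINS3 without 526-1240 replicate 3 (0.35 to 0.49) and E2F2 without TKO replicate 1 (-0.37 to -0.24), and the count fell to 8 without 526-1240 replicate 1. In 526-1365, UHRF1 lost it without any of the 6 arrays (0.34 to 0.41), MCM10 without any array but 526-1365 replicate 2 (-0.66 to -0.57), RRM1 without any array but 526-1365 replicate 3 (0.13 to 0.24), E2F1 without TKO replicate 1 or 3 or 526-1365 replicate 2 or 3 (-0.24 to -0.17), and RFC2 without TKO replicate 1 or 2 or 526-1365 replicate 2 or 3 (-0.35 to -0.29). MCM5 lost it without TKO replicate 2 or 526-1365 replicate 1 (-0.57 to -0.37) and GINS3 without 526-1365 replicate 3 (0.34 to 0.51), and the count fell to 8 without TKO replicate 1 or 2 or 526-1365 replicate 3.

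CCNE2 set the full-length line apart from the fragments. This cyclin, one of the pair that activate the G1-S kinase, read 11.22, 11.15 and 11.05 in WT, 10.37, 10.37 and 10.42 in TKO, 9.84, 9.26 and 9.43 in 526-1240 and 9.87, 9.41 and 9.65 in 526-1365. No arrays of WT, TKO and the fragments overlapped, with WT above TKO and the fragments below it. It differed from TKO by 0.75 in WT (SE 0.161, adjusted p = 0.000752), by -0.88 in 526-1240 (adjusted p = 0.000159) and by -0.74 in 526-1365 (0.00084). Tested directly, CCNE2 was lower in 526-1365 than in WT by a log2 difference of -1.50 (SE 0.161, adjusted p = 5.36e-06), or 2.82-fold.

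It was the only member called between 526-1365 and WT, where 1.42% of all genes were called (0.746% higher and 0.67% lower; 186 genes, against 23 with the compared lines alone and 304 without H762Y replicate 1), and its call held whichever array was left out; 4 members had an unadjusted p under 0.05. PRIM1, MCM6, GINS3 and CDT1 differed between those lines by -0.24, 0.06, -0.13 and -0.11, and their 95% intervals reached -0.73, 0.26, -0.39 and -0.43. The second CCNE2 probe set, 211814_s_at, also read lower in 526-1365 than in WT (-1.44) and lower in the fragments than in TKO (-1.54 and -1.60). It did not separate WT from TKO (-0.16, adjusted p = 0.57 over probe sets), so the position of WT above TKO rests on 1 probe set. The tested gap between WT and 526-1365 rests on both. On 211814_s_at CCNE2 was also called lower than in TKO in CDM (-1.02), MMSET1 (-1.03) and H762Y (-0.72). The probe set read gave -0.04, -0.04 and 0.25 in these lines, without passing. A level below TKO on 211814_s_at was therefore not particular to the fragments.

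**Figure D3:**
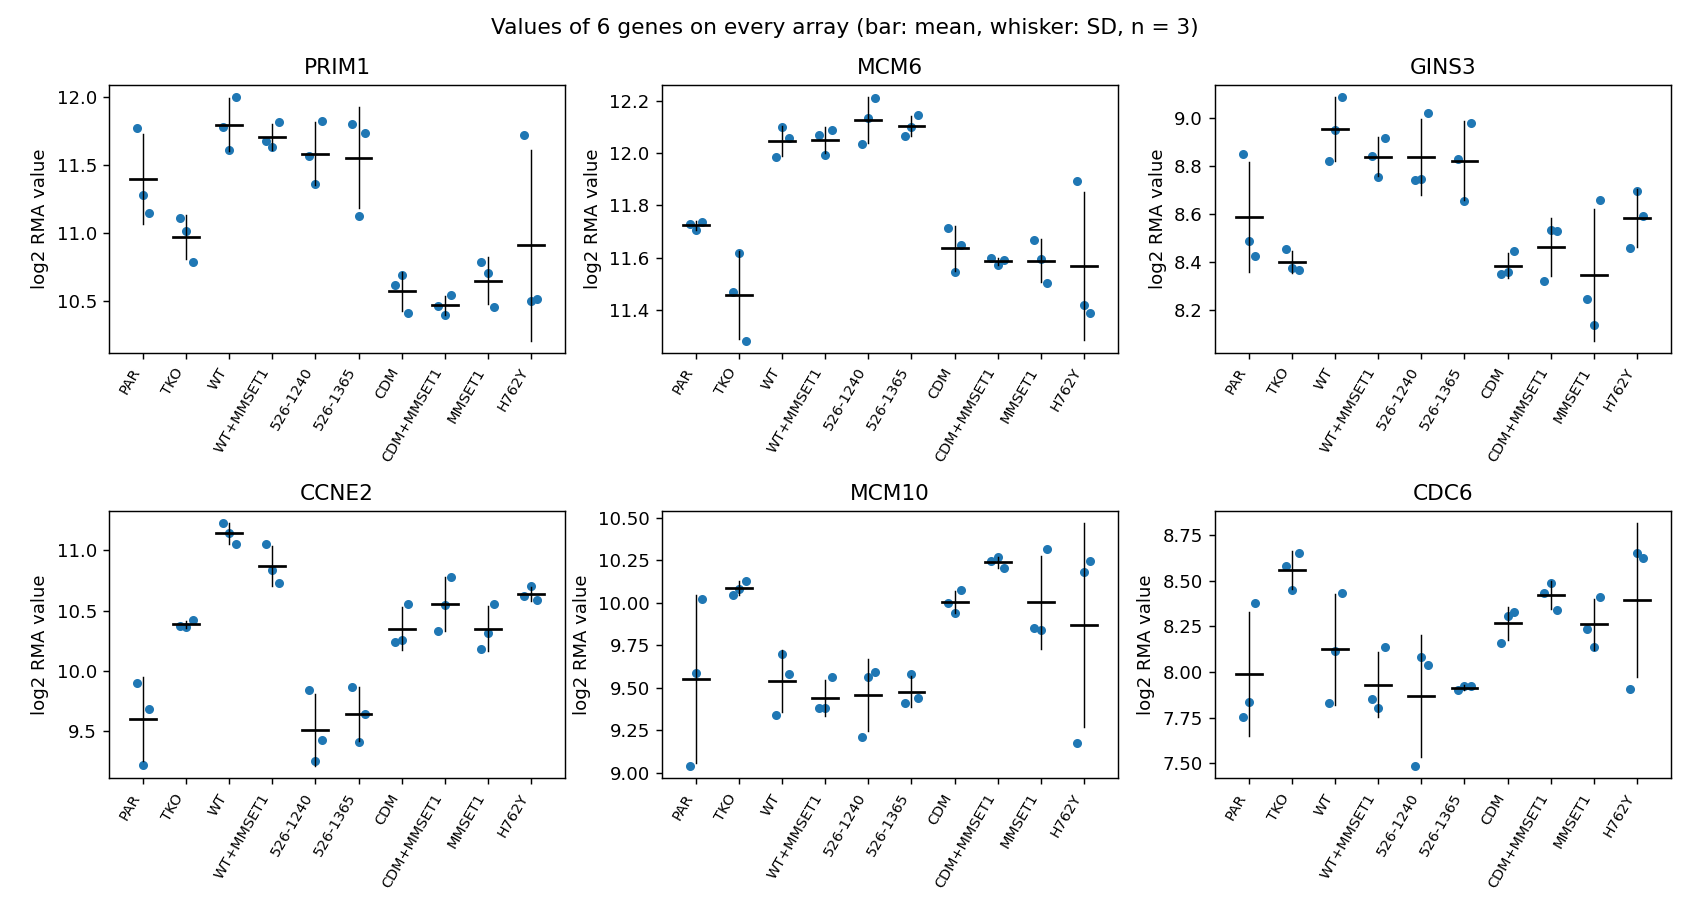
Log2 RMA value of PRIM1, MCM6, GINS3, CCNE2, MCM10 and CDC6 on every array of the 10 lines; bars are means and whiskers SDs of n = 3 arrays, and each panel has its own axis, which does not start at 0. PRIM1, MCM6 and GINS3 are high in WT, WT+MMSET1 and both fragment lines, MCM10 is low in the same 4 lines and on PAR replicates 1 and 2, CCNE2 splits them, and H762Y replicate 1 stands apart from the other H762Y arrays on PRIM1, MCM6, MCM10 and CDC6.

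The parental line was compared with TKO, and the share of members called (20.6%) was near that of all genes. In PAR, 0 members were higher than in TKO and 7 were lower, with 22.3% of all genes called, 12.2% higher and 10.1% lower. CCNE2 (-0.79), E2F2 (-0.58), CCNE1 (-0.41) and E2F1 (-0.23) were 4 of the 5 regulators on the list, and CDC6 (-0.57), TYMS (-0.40), the enzyme that makes thymidylate, and RFC3 (-0.33), a clamp loader subunit, were the others. E2F2 read 9.77, 9.70 and 9.77 in PAR and 10.47, 10.28 and 10.22 in TKO (SE 0.0945, adjusted p = 4.89e-05), without overlap, and its other probe sets differed by -0.63 and -0.56. CCNE2 read 9.90, 9.22 and 9.69 in PAR (SE 0.161, adjusted p = 0.000704), also without overlap. PRIM1 differed by 0.43 (adjusted p = 0.209) and MCM6 by 0.27 (0.0571), and neither passed.

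Replicate numbers paired the PAR and TKO arrays. With only these lines in the fit and no block, the calls on CCNE1, CDC6, E2F1, RFC3 and TYMS were lost. With the number as a block in that fit, those on CCNE1 and CDC6 were kept and those on E2F1, RFC3 and TYMS were still lost. CCNE2 and E2F2 kept their calls whichever array was left out. CCNE1 lost it without PAR replicate 1 or 2 or TKO replicate 3 (-0.56 to -0.31), CDC6 without PAR replicate 1 or 2 or TKO replicate 1 or 3 (-0.76 to -0.45), E2F1 without PAR replicate 1 or TKO replicate 1 or 3 (-0.28 to -0.15), RFC3 without any array but PAR replicate 3 (-0.47 to -0.25), and TYMS without PAR replicate 1 (-0.52 to -0.27). The count was 2 without PAR replicate 1, 4 without PAR replicate 2 or TKO replicate 1, and 3 without TKO replicate 3.

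WT against PAR had 14 members higher and 0 lower in the fit of all lines, with 30.6% of all genes called, 15.7% higher and 14.9% lower. CCNE2 again changed most, by 1.54 (SE 0.161, adjusted p = 2.2e-07), or 2.91-fold, and it did so by 0.85 on its second probe set. RRM2 read 12.98, 12.77 and 12.77 in WT and 12.24, 11.91 and 12.14 in PAR, a difference of 0.74 (adjusted p = 2.83e-05). The WT arrays of both genes lay above all PAR arrays. CDT1 (0.67), UHRF1 (0.63), E2F2 (0.59), CCNE1 (0.58), RFC3 (0.54), TK1 (0.52), PCNA (0.50), RFC5 (0.47), RRM1 (0.38), GINS3 (0.37), MCM6 (0.32) and GMNN (0.30) made up the rest. No subunit of the ring other than MCM6 was called on the probe sets read, while second probe sets called MCM7 (210983_s_at, -0.37) and MCM4 (212142_at, -0.62) lower. With the WT and PAR arrays alone, 8 members were called, and CCNE1, GINS3, GMNN, MCM6, RFC5 and RRM1 lost their calls. GINS3 lost its call without PAR replicate 2 or 3 or WT replicate 2 or 3 (0.28 to 0.50) and MCM6 without PAR replicate 2 or WT replicate 2 (0.30 to 0.36). CDT1, RFC3, RFC5, TK1 and RRM1 were not called higher on any other probe set, and 203210_s_at called RFC5 lower (-0.34).

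CDM and MMSET1, the lines given a dead enzyme or the isoform without the SET domain, were each compared with TKO. CDM had 2 members higher and 5 lower (17.2% of all genes called, 9.99% higher and 7.18% lower), and MMSET1 had 2 higher and 4 lower (16.9%, 9.29% higher and 7.6% lower). CDC45 read 9.46, 9.49 and 9.42 in TKO, 8.95, 9.11 and 8.92 in CDM and 8.68, 8.83 and 8.91 in MMSET1. It was lower in both lines without overlap, by -0.46 (SE 0.113, adjusted p = 0.00555) and -0.65 (adjusted p = 0.000296). RFC2 (-0.42 and -0.35) and TK1 (-0.47 and -0.39) were also lower in both, E2F1 (-0.30) and MCM3 (-0.25) in CDM, and CCNE1 (-0.34) in MMSET1. On its second probe set, TK1 differed by -1.49 and -1.30. RFC3 (0.41 and 0.39) and RFC5 (0.33 and 0.28) were called higher in both lines on the probe sets read, while a second probe set read RFC3 lower without passing (-0.33 and -0.27) and 203210_s_at called RFC5 lower (-0.37 and -0.34). The third RFC5 probe set, 213734_at, called it higher in both (0.49 and 0.46), so RFC5 was higher on 2 of 3 probe sets. PRIM1 differed by -0.40 (adjusted p = 0.272) and -0.32 (0.398), which did not pass. Some members not called on the probe sets read were called lower in both lines on another. For CDT1, 209832_s_at gave -1.06 in CDM and -0.77 in MMSET1, while the probe set read gave 0.43 and 0.40. The rest were CCNE2 (-1.02 and -1.03), E2F2 (-0.92 and -0.49), MCM5 (-0.74 and -0.68), MCM7 (-0.64 and -0.51), TYMS (-0.62 and -0.59), FEN1 (-0.56 and -0.55) and RRM1 (-0.37 and -0.36). No other probe set called such a member higher.

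Replicate numbers paired the arrays in both comparisons. Fitting only the compared lines called 14 members in CDM, and adding the number as a block also called 14 (4 higher, 10 lower). In MMSET1 the fit with the block called 10 (3 higher, 7 lower). Of these fits, TK1 lost its MMSET1 call only without the block and RFC5 only with it, while RFC2 lost it in both. Counts over all 13137 genes rose too, in CDM from 2256 to 3410 with the compared lines alone and to 4092 with the block (2402 higher, 1690 lower). In MMSET1 they rose from 2220 to 2799 with the compared lines alone and to 3333 with the block (1855 higher, 1478 lower). In CDM, CDC45, E2F1, RFC2 and RFC5 kept their calls whichever array was left out. RFC3 (0.36 to 0.45) and TK1 (-0.55 to -0.32) lost them without CDM replicate 3 or TKO replicate 1, which left 4 calls each, and MCM3 without any array but TKO replicate 3 (-0.29 to -0.20). In MMSET1 only CDC45 kept its call throughout. CCNE1 (-0.40 to -0.27) and RFC2 (-0.48 to -0.29) lost it without any array but MMSET1 replicate 3, TK1 without any MMSET1 array or TKO replicate 1 (-0.48 to -0.24), RFC3 without MMSET1 replicate 3 or TKO replicate 1 or 2 (0.33 to 0.42), and RFC5 without MMSET1 replicate 1 or 2 or TKO replicate 1 (0.23 to 0.31). The MMSET1 count was 1 without TKO replicate 1, 2 without MMSET1 replicate 1 or 2, and 3 without TKO replicate 2.

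The H762Y results turned on 1 array. With all 3 arrays, 4 members were higher than in TKO (15.8% of all genes called, 8.5% higher and 7.26% lower): CDT1 (0.68), UHRF1 (0.44), RFC3 (0.38) and RFC5 (0.28). Other probe sets read 3 of these lower: CDT1 by -0.51 and RFC3 by -0.24 without passing, and RFC5 by -0.39 on 203210_s_at, where it was called. Some members not called against TKO on the probe sets read were called on another. TK1 (-1.16), MCM4 (-0.98), CCNE2 (-0.72), TYMS (-0.64), FEN1 (-0.62), MCM7 (-0.48) and RRM1 (-0.32) were lower there, and MCM6 (0.68) and GINS3 (0.40) higher. Against WT, 6 members were lower (15.4%, 5.98% higher and 9.41% lower): PRIM1 (-0.89), CCNE2 (-0.50), MCM6 (-0.48), TK1 (-0.45), GINS3 (-0.37) and RFC5 (-0.32). PRIM1 read 11.72 on replicate 1 and 10.50 and 10.51 on replicates 2 and 3, and MCM10 read 9.17 on replicate 1 and 10.18 and 10.25 on the others. Replicate 1 lay among the WT and fragment arrays on PRIM1 and just under them on MCM10, while replicates 2 and 3 lay among the arrays of CDM, MMSET1 and CDM+MMSET1 on both genes.

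Without replicate 1, 8 members were called against TKO, 7 higher and 1 lower (17.4% of all genes). UHRF1 (0.69), CDT1 (0.64) and RFC3 (0.55) were joined by ORC1 (0.51), the largest subunit of the origin complex, ORC6 (0.37), RRM2 (0.37) and GINS1 (0.29), TK1 (-0.40) was lower, and RFC5 was no longer called. Against WT the count rose to 15, 10 higher and 5 lower (39.2% of all genes). ORC1 (0.89, adjusted p = 0.000222), MCM10 (0.68), MCM5 (0.55), MCM4 (0.55), GINS2 (0.54), CDC6 (0.51), ORC6 (0.38), UHRF1 (0.38), MCM2 (0.36) and RFC3 (0.34) were higher, and PRIM1 (-1.29, adjusted p = 1.42e-05), MCM6 (-0.65), TK1 (-0.63), CCNE2 (-0.49) and RFC5 (-0.39) were lower.

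Other arrays mattered too. Against TKO, the count was 2 without H762Y replicate 2 or 3 or TKO replicate 2 and 1 without TKO replicate 1. CDT1 kept its call whichever array was left out, but lost it in the mean of its probe sets. RFC3 lost it without H762Y replicate 2 or 3 or TKO replicate 1 or 2 (0.29 to 0.55), RFC5 without H762Y replicate 1 or TKO replicate 1 (0.21 to 0.32), and UHRF1 without any array but H762Y replicate 1 (0.31 to 0.69). Against WT the count was 1 without H762Y replicate 2 or 3 and 2 without WT replicate 1 or 3. MCM6 kept its call whichever array was left out, GINS3 (-0.44 to -0.30) lost it without any of the 6 arrays and CCNE2 (-0.55 to -0.46) without any but H762Y replicate 1. PRIM1 (-1.29 to -0.68) lost it without H762Y replicate 2 or 3 or WT replicate 3, RFC5 (-0.40 to -0.27) without H762Y replicate 2 or 3 or WT replicate 1, and TK1 (-0.63 to -0.35) without H762Y replicate 2 or 3 or WT replicate 1 or 3. With the H762Y and WT arrays alone in the fit, none of the 6 calls was kept.

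Over all 16 comparisons, 27 members were called at least once. The 7 that never were are ORC1, ORC6, MCM2, MCM7, GINS1, RFC4 and FEN1, with all arrays in the fit and on the probe sets read. Second probe sets of MCM7 and FEN1 were called lower in WT than in TKO, by -0.46 and -0.57. They were also called lower than in TKO in CDM (-0.64 and -0.56), MMSET1 (-0.51 and -0.55) and H762Y (-0.48 and -0.62). In PAR neither passed (-0.09 and -0.19). The direction of a call was opposite on another probe set, and called there, for RFC5 in 6 comparisons.

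Other genes of replication and the G1-S step, 71 tested outside the 34, were also called in both directions. Against TKO, 16 rose and 19 fell in WT, 12 rose and 17 fell in 526-1240, and 13 rose and 18 fell in 526-1365. POLD1, the catalytic subunit of the lagging strand polymerase, was lower than in TKO by -1.24 and -1.17 in the fragment lines (adjusted p = 1.42e-06 and 2.91e-06), -0.85 in MMSET1 and -0.68 in CDM. In WT its accessory subunit POLD2 (-0.94) and the helicase RECQL4 (-0.84) were lower, and E2F8 (0.83), a repressor of the E2F family, was higher. PRIM2, the partner of PRIM1, was higher than in TKO in CDM (0.61, adjusted p = 0.00242) and in MMSET1 (0.54, adjusted p = 0.00609), lines in which PRIM1 read lower without passing. In WT against CDM, 7 rose and 5 fell, with E2F8 (0.50) and SKP2 (0.44), which marks the inhibitor p27 for destruction, among the higher and TFDP2 (-0.79) and CTPS1 (-0.71) among the lower. In WT+MMSET1 against CDM+MMSET1, 4 rose and 19 fell, among them TIPIN (-1.12), CDK6 (-0.72) and CDC25A (-0.58), the phosphatase that activates the S phase kinase.

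Between PAR and TKO, 4 of the 71 rose and 11 fell, including E2F7 (-0.75) and CLSPN (-0.68), a checkpoint adaptor, while SKP2 was higher (0.57). In WT against PAR, 23 rose and 7 fell, with E2F7 (1.14) and E2F8 (1.09) among the higher. Against TKO, 14 rose and 12 fell in CDM, 11 rose and 8 fell in MMSET1, and 10 rose and 8 fell in H762Y; 1 rose and 4 fell in H762Y against WT, and 2, E2F7 (-0.61) and LIG1 (-0.37), fell in 526-1365 against WT. Of 31 mitosis genes, 11 rose and 4 fell in WT against TKO and 15 rose and 2 fell in WT against PAR, with KIF23 (0.88 and 1.08) in both, and 4 rose and 0 fell in WT against CDM, led by KIF2C (1.22). In WT+MMSET1 against CDM+MMSET1, 2 mitosis genes rose, with KIF2C at 0.92, and 3 fell, among them CCNB1 (-0.65) and CDC20 (-0.60). Against TKO, 1 rose and 4 fell in PAR, 4 rose and 5 fell in CDM, 3 rose and 3 fell in MMSET1, 2 rose and 5 fell in H762Y, 7 rose and 4 fell in 526-1240, and 5 rose and 6 fell in 526-1365. In H762Y against WT, 1 rose and 3 fell, and the other comparisons called none.

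The mean over the 34 genes moved little between lines, from 10.01 ± 0.122 in PAR to 10.26 ± 0.0763 in WT (SD, n = 3). Within lines, the deviations of an array from its line's mean followed the replicate number. The replication mean lay below its line's mean on replicate 1 in 8 of 10 lines and above it on replicate 3 in 9 of 10. The mean of the mitosis genes lay above on replicate 1 in all 10 lines and below on replicate 3 in 9 of 10. The 30 arrays are therefore not independent here, and on 23 of them both means deviated in opposite directions. PAR replicate 3 deviated by 0.14 on the replication genes, with 29 of 34 above their line mean, and by -0.21 on the mitosis genes. MMSET1 replicate 3 deviated by 0.12 and -0.11, and H762Y replicate 1 by -0.17 and 0.13. MMSET1 replicate 3 and H762Y replicate 1 are also among the arrays whose removal ended calls above, and the part of these deviations in those calls was not tested.

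**Figure D4:**
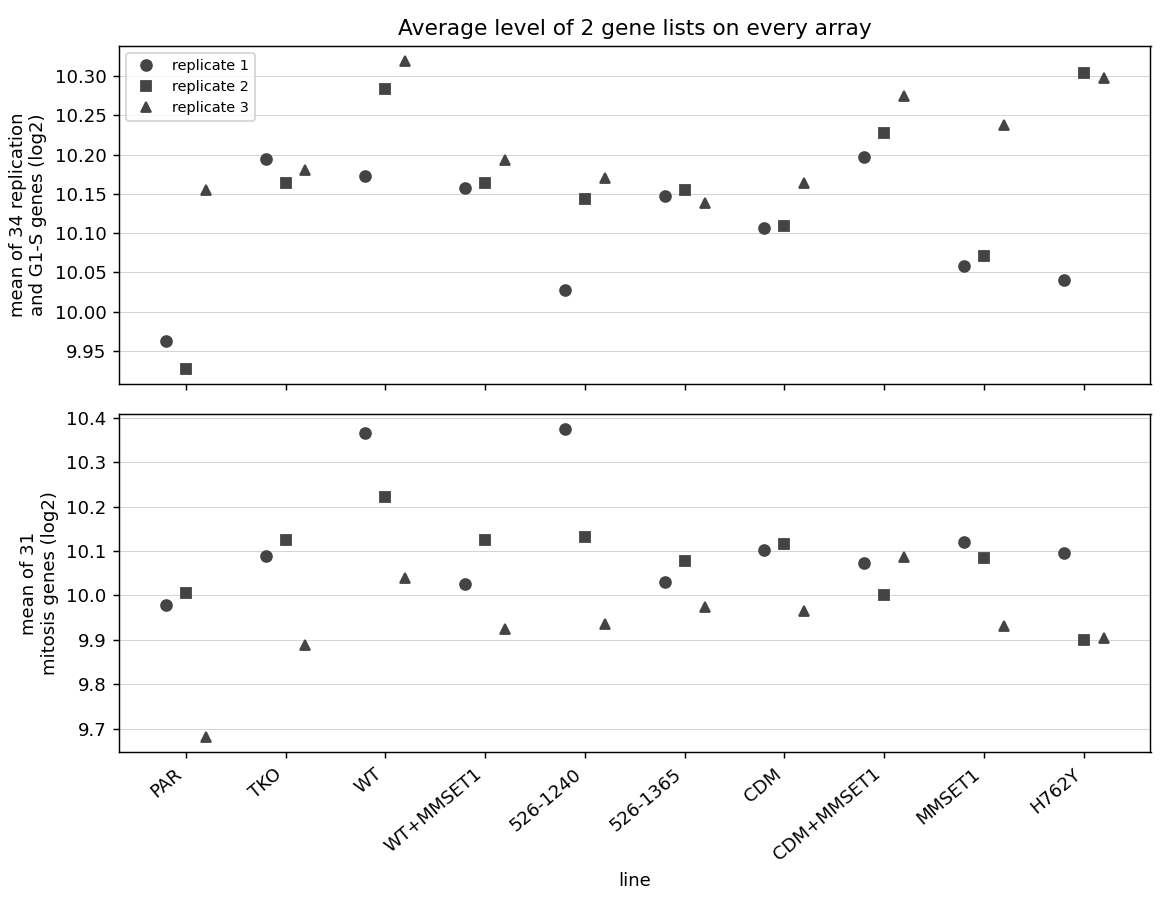
Mean log2 RMA value of the 34 replication and G1-S genes (upper panel) and of 31 mitosis genes (lower panel) on each array of the 10 lines, with the replicate number as the marker; the axes do not start at 0. PAR replicate 3 is the highest PAR array above (10.15) and the lowest below (9.68), and H762Y replicate 1 (10.04) lies under the other H762Y arrays (10.30 on both) in the upper panel.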

How the data were processed

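RNA of 10 KMS11 lines, 3 cultures each, was measured on 30 arrays. The deposited table holds log2 values that the authors obtained by RMA, per the design text of the series and the processing notes of its submitters; no RMA version or chip definition is stated in the sources used here. RMA evens out the distributions of the arrays, so a shift common to all genes is not measured. The number of arrays limits the precision.

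Of 54613 probe sets, 41091 had 1 symbol in the platform annotation; 1801 with several and 11721 not listed were left out. Each gene was read on its brightest probe set, and 13137 genes were tested, those above the overall median of 5.013 on at least 3 arrays. limma 3.58.1 (R 4.3.3) fitted a mean per line to all arrays (20 residual degrees of freedom), for 15 comparisons of lines and 1 interaction. Adjustment was by Benjamini-Hochberg over all genes within a comparison, and a gene was called at an adjusted p under 0.05. SE is the moderated standard error. Other probe sets were adjusted over probe sets. The procedure was tested on simulated data. The members and the other lists were chosen with earlier results of these data known; called members were named, and up to 6 genes of largest difference per comparison from the other lists. Replicate numbers paired the arrays (same-number residuals correlated above 0.1 for every number) in PAR, CDM and MMSET1 against TKO, 526-1365 against 526-1240 and WT, and WT+MMSET1 against WT. The closing section gives the alternatives tried. Promoters are RefSeq's (GRCh38.p14).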

Additional observations from a re-analysis of the deposited data

Results flagged for a closer look

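CCNE2 was singled out in a pair of direct comparisons because lines that were each compared with TKO moved in opposite directions and the gap between them passed its own test. Every WT array lay above every TKO array, and every PAR and 526-1365 array lay below. The log2 difference was 1.54 in WT against PAR (SE 0.161, adjusted p = 2.2e-07 by limma, 13137 genes) and -1.50 in 526-1365 against WT (SE 0.161, adjusted p = 5.36e-06). On the second probe set these differences were 0.85 and -1.44, and WT did not differ from TKO beyond the threshold there (-0.16).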

How the results depend on the processing

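Leaving out each array in turn, the number of members called ranged from 2 to 9 in PAR, 9 to 13 in WT, 4 to 7 in CDM, 1 to 6 in MMSET1, 1 to 8 in H762Y, 8 to 15 in 526-1240 and 8 to 12 in 526-1365, each against TKO. It ranged from 7 to 9 in WT against CDM, 12 to 15 in WT against PAR, 1 to 15 in H762Y against WT and 6 to 8 in WT+MMSET1 against CDM+MMSET1, and was 1 in 526-1365 against WT. In the 4 comparisons with 0 members called it stayed at 0. A fit of all lines without H762Y replicate 1, planned with that array's values known, called 11 members in PAR, 11 in CDM and 8 in H762Y against TKO, 2 in 526-1365 against WT and 15 in H762Y against WT. Over all genes it called 3512, 2877, 2287, 304 and 5147 in the same order. A fit of the compared lines alone called 2 members in PAR, 14 in CDM and 1 in H762Y against TKO, 8 in WT against PAR and 0 in H762Y against WT. Over all genes it called 2016, 3410, 295, 1926 and 303 in the same order. With the replicate number as a block in that fit, 14 members were called in CDM, 10 in MMSET1 and 0 in H762Y against TKO, and 0 in H762Y against WT. Over all genes the block fit called 4092, 3333, 0 and 429 in the same order. The numbers did not pair the H762Y arrays. In the other comparisons that the numbers paired, the block left 0 calls at 0 and kept CCNE2 called in 526-1365 against WT. In WT against CDM, which they did not pair, the compared lines alone gave 7 higher and 2 lower, MCM10 and MCM4, with or without the block. Medians centred, other filters, a variance trend and the mean of a gene's probe sets kept every count of members within 1.5 times. The mean of probe sets turned RFC5 in WT against CDM to -0.012 and the split in CDM against TKO to 0 higher and 10 lower, in MMSET1 against TKO to 0 and 7, in H762Y against TKO to 2 and 2, in 526-1365 against TKO to 3 and 12, and in WT against TKO to 6 and 8. Of 1484 values of single genes, 1198 kept their direction and side of the threshold, 285 lost the call and 1 reversed. The cause of these changes was not tested. Over all genes, counts that moved by over 1.5 times included 5147 in H762Y against WT without H762Y replicate 1 and 303 with the compared lines alone (2021 as reported), and 295 with the compared lines alone in H762Y against TKO (2070 as reported). They also included 3410 in CDM against TKO (2256 as reported) and 1926 in WT against PAR (4021 as reported) with the compared lines alone, and 3333 in MMSET1 against TKO with the block (2220 as reported), as well as 23 with the compared lines alone and 304 without H762Y replicate 1 in 526-1365 against WT (186 as reported). Leaving out single arrays, the count ranged from 1546 to 3201 in WT against CDM (3070 as reported) and from 2526 to 3791 in WT+MMSET1 against CDM+MMSET1 (4219 as reported). Against TKO it ranged from 2283 to 2894 in PAR, 4153 to 5193 in WT and 1438 to 1887 in CDM. The ranges there were 1434 to 1860 in MMSET1, 1303 to 2287 in H762Y, 3828 to 5133 in 526-1240 and 3787 to 5026 in 526-1365. It ranged from 2849 to 4624 in WT against PAR, 712 to 5147 in H762Y against WT and 110 to 186 in 526-1365 against WT.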
